A study of Arabidopsis thaliana with 9 samples.

Results

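JMJ28 (AT4G21430) and its 5 relatives IBM1 (AT3G07610), JMJ24 (AT1G09060), JMJ26 (AT1G11950), JMJ27 (AT4G00990) and JMJ29 (AT1G62310) form the KDM3-type branch of the JmjC-domain proteins in Arabidopsis thaliana. These 6 of 27444 protein-coding genes were taken by locus, and the H3K4me3 peaks over each gene body and 500 bp on both sides were read in every library. H3K4me3, trimethylation of lysine 4 of histone H3, marks the 5′ part of transcribed genes. The mark was mapped by ChIP-seq (immunoprecipitation of chromatin followed by sequencing) in 12-day-old seedlings of 3 genotypes, all in the Col-0 accession. There were 2 H3K4me3 libraries each of wild-type Col-0, of the jmj28-2 mutant and of the atx1/2 mutant, which is named for ATX1 and ATX2, H3K4 methyltransferase genes of the Trithorax type. All seedlings were grown at 23 °C with 16 h of light and 8 h of dark on a medium with 1% sucrose. The labels do not give the kind of allele in either mutant, nor say that replicate libraries came from separate cultures, so the error behind each p-value is that between libraries and may be technical alone.

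JmjC proteins are oxygenases that use iron and 2-oxoglutarate to remove methyl groups from histone lysines. The KDM3 type is known for removing methylation from lysine 9 of histone H3 (H3K9), a mark of silent chromatin that in plants is kept in a loop with DNA methylation at CHG sites. IBM1 is the best-known member and keeps this silencing out of the bodies of transcribed genes. JMJ28 is known to bind FBH-type bHLH transcription factors and to help activate the flowering gene CO. The mark measured here lies on the genes that encode these enzymes and is not the mark that they remove.

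Each of the 6 genes carried a H3K4me3 peak across 1 end of the gene in all 6 libraries, which at JMJ27 also covered non-coding RNA genes, so no gene of the group was without a peak in jmj28-2 or in atx1/2. The authors deposited peak positions and a peak score without read counts, so length and rank within a library are the measures, and depth is unknown. A similar peak length does not show a similar H3K4me3 level. Lists held 14291 to 14493 peaks on chromosomes 1 to 5, with median widths of 1801 to 1858 bp, and their lowest score was 20.01 to 20.08. Median scores were 460 to 477 in the Col-0 and jmj28-2 lists and 527 and 538 in those of atx1/2, so scores are given as percentiles within a list.

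JMJ28, the gene mutated in jmj28-2, had a peak between positions 11410712 and 11412788 of chromosome 4 (TAIR10) at the end of the gene with higher coordinates. The peak was 1962 and 1952 bp wide for Col-0, 2012 and 2063 bp for jmj28-2, and 1967 and 1932 bp for atx1/2. Both jmj28-2 peaks were thus longer than both Col-0 peaks, while those of atx1/2 lay on either side of them. The difference lay on the side that faces into the gene. There the peak began at 11410814 and 11410813 in Col-0, at 11410726 and 11410712 for jmj28-2, and at 11410798 and 11410857 in atx1/2. In jmj28-2 this inner edge lay 94.5 bp farther into the gene on average. It lay farther in for both jmj28-2 libraries in 11.5% of 16877 genes with a peak on the body in every library, and 18.1% of these genes had a shift at least as large in either direction. The outer edge lay at 11412775 and 11412764 in Col-0 and at 11412737 and 11412774 in jmj28-2. Peak positions cannot tell a mutated allele from an intact one, so this peak is no check of the genotype label.

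Measured over the gene body and flanks, the mean for JMJ28 was 1957 ± 7.07 bp (SD, n = 2) for Col-0, 2038 ± 36.1 bp for jmj28-2 and 1945 ± 31.1 bp for atx1/2. The log2 change in jmj28-2 was 0.05 ± 0.022 (SE, 95% interval -0.0084 to 0.11) and did not pass the test (limma adjusted p = 0.686). The change in atx1/2 was -0.0081 ± 0.022 (95% interval -0.069 to 0.053, limma adjusted p = 0.963). Between the mutants the difference was -0.06 (95% interval -0.12 to 0.00020, limma adjusted p = 0.704). Over the gene body alone the change in jmj28-2 was 0.08 ± 0.020 (SE), with an unadjusted limma p of 0.0220 and an adjusted p of 0.465. In that window the difference between the mutants was -0.09 ± 0.020 (limma adjusted p = 0.406). Neither passed the test. These folds are on the scale of log2(bp + 200), which understates changes of short peaks.

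The JMJ28 peak ranked high among the peaks of its library. Its score percentile was 74.2 and 71.5 for Col-0, 80.0 and 73.4 for jmj28-2, and 73.0 and 74.5 for atx1/2. The next peak towards lower coordinates, that of the receptor-like kinase gene CRK29, was 4.25 and 4.26 kb away in Col-0 and 4.30 and 4.35 kb away in atx1/2. In jmj28-2 no peak was called on that side for 52.8 kb. The window of CRK29 held 0 bp of peak in both jmj28-2 libraries, and 2524 and 2523 bp in Col-0. Without read counts it is unknown whether reads covered this stretch in jmj28-2, so the missing peak does not by itself show loss of the mark. Its reason was not tested. On the other side the next peak was 11.6 to 11.7 kb away in every library.

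**Figure D1:**
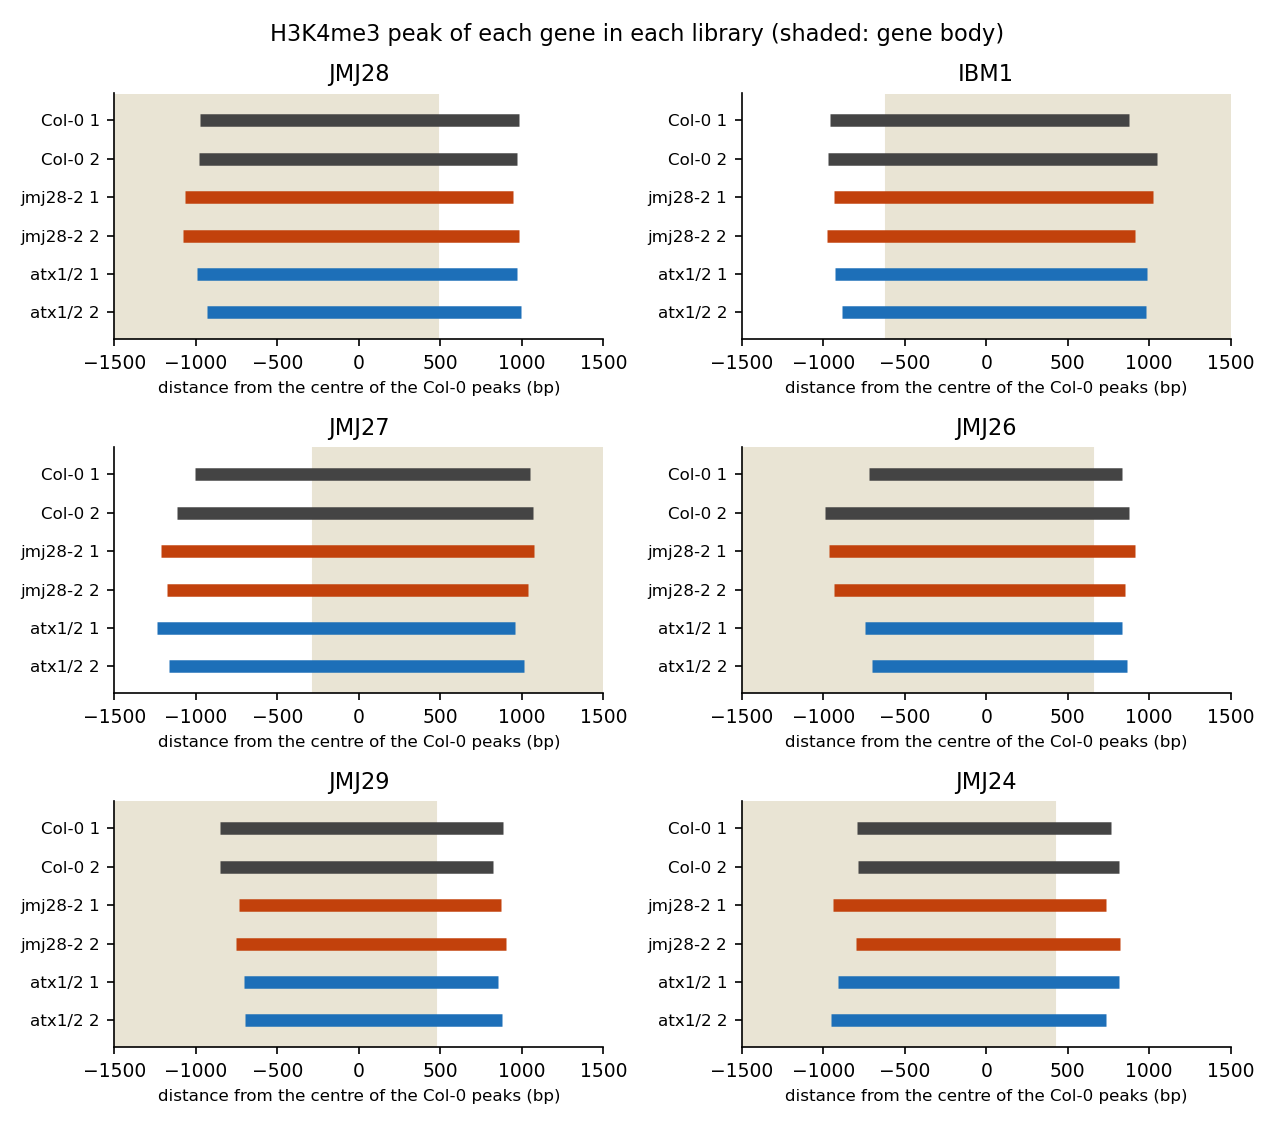
Span of the H3K4me3 peak of each gene in each of the 6 libraries, as distance in bp from the centre of the Col-0 peaks, with the gene body shaded. All 6 genes had a peak across 1 gene end in every library, and the JMJ28 peak reached 94.5 bp farther into the gene in jmj28-2.

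IBM1, the H3K9 demethylase that protects transcribed genes, had a peak at the end of the gene with lower coordinates (chromosome 3, 2425523 to 2427546). It measured 1833 and 2018 bp for Col-0, 1958 and 1886 bp for jmj28-2 and 1915 and 1861 bp for atx1/2. Here the Col-0 libraries lay farthest apart and enclosed all 4 mutant libraries. For jmj28-2 the log2 change was -0.0012 ± 0.052 (SE), for atx1/2 it was -0.02 ± 0.052, with limma adjusted p of 1.00 and 0.943. The 95% intervals, -0.14 to 0.14 and -0.17 to 0.12, bound what these libraries could show. IBM1 is a long gene of 7230 bp, and its peak covered 20.6% to 23.0% of it. The remainder of the gene held no peak in any library. A silenced intron of IBM1 is known to affect its transcript, but its position relative to the peak was not placed here.

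JMJ27, a H3K9 demethylase known for roles in defence and flowering, had the widest peak of the group (chromosome 4, 425887 to 428202). Widths were 2059 and 2182 bp for Col-0, 2289 and 2215 bp for jmj28-2, and 2197 and 2178 bp for atx1/2. Between 726 and 960 bp of it lay outside the gene body, more than for any other gene of the group. On that side it covered 275 to 378 bp of the long non-coding RNA gene AT4G03805 and 275 to 343 bp of AT4G03815 in all 6 libraries, so it is not the peak of JMJ27 alone. The flank at the other gene end also held 150 to 292 bp of a peak on the neighbouring gene AT4G01000. Gene body and flanks together held 2002 ± 27.6 bp (SD, n = 2) for Col-0, 2020 ± 21.9 bp for jmj28-2 and 2012 ± 108 bp for atx1/2. The log2 changes of 0.011 and 0.0057 (SE 0.040 in both) did not pass the test, with limma adjusted p of 0.984 and 1.00. The gene body alone held 1333 and 1350 bp for Col-0, 1356 and 1319 bp for jmj28-2, and 1237 and 1297 bp for atx1/2. There both atx1/2 libraries lay below both Col-0 libraries, with a log2 change of -0.07 ± 0.027 (SE, limma adjusted p = 0.619). The mean shift of the inner edge in atx1/2 was -74.5 bp, towards the gene end and without overlap. Of all genes, 22.3% had this edge nearer the end in both atx1/2 libraries, and 26.3% had a shift at least as large in either direction. The share of all genes separated by bp over the body alone was not computed.

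JMJ24, which carries a RING domain and is known to target the DNA methyltransferase CMT3 for degradation, had a narrow peak (chromosome 1, 2924455 to 2926227). It measured 1563 and 1598 bp for Col-0, 1675 and 1622 bp for jmj28-2, and 1727 and 1687 bp for atx1/2. All 4 mutant libraries were longer than both Col-0 libraries, and both atx1/2 libraries were longer than both of jmj28-2. In atx1/2 the log2 change was 0.10 ± 0.026 (SE, 95% interval 0.028 to 0.17), with an unadjusted limma p of 0.0181 and an adjusted p of 0.423. In jmj28-2 it was 0.05 ± 0.026 (limma adjusted p = 0.713). Without jmj28-2 replicate 1 the latter was 0.03. The inner edge lay at 2924611 and 2924623 for Col-0, 2924469 and 2924606 for jmj28-2, and 2924497 and 2924455 for atx1/2. It lay 141 bp farther into the gene in atx1/2 on average, and 79.5 bp farther in jmj28-2, where most of the shift came from replicate 1. Over the gene body alone, the log2 change in jmj28-2 was 0.08 with both libraries and 0.011 without replicate 1. In atx1/2, 13.8% of genes had an inner edge farther in for both libraries, and 9.94% had a shift at least this large in either direction. The libraries of both mutants are set against the same 2 Col-0 libraries, so the changes are not independent of each other.

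JMJ26, whose function is less well described, had a peak at the end of the gene with higher coordinates (chromosome 1, 4037422 to 4039319). Its length took 2 forms, with 1554 bp in 1 Col-0 library and 1866 bp in the other, 1874 and 1788 bp for jmj28-2, and 1578 and 1562 bp for atx1/2. The inner edge made this difference, at 4037687 and 4037422 in Col-0, 4037446 and 4037476 for jmj28-2, and 4037667 and 4037709 in atx1/2. One Col-0 library thus resembled the jmj28-2 libraries and the other those of atx1/2, and neither mutant stood apart from Col-0. The atx1/2 libraries did stand apart from those of jmj28-2, with a mean shift of this edge of -227 bp, towards the gene end, and 4.28% of genes had a shift at least that large between the mutants. Of all genes, 16.2% had this edge nearer the gene end in both atx1/2 libraries and 19.2% had it farther in. Over the gene and flanks the difference between the mutants was -0.15 ± 0.064 (SE, 95% interval -0.33 to 0.022), which did not pass the test (limma adjusted p = 0.750). Against Col-0 the values were 0.09 for jmj28-2 (limma adjusted p = 0.774) and -0.07 for atx1/2 (limma adjusted p = 0.818). These values include 528 to 607 bp of a separate peak on the neighbouring gene AT1G11940, which reached through the flank and 28 to 107 bp into the body of JMJ26 in all 6 libraries.

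JMJ29, a H3K9 demethylase known for a role in trichome development, had the lowest median score percentile over the 6 libraries (chromosome 1, 23038463 to 23040218), although JMJ26 ranked lower in Col-0 replicate 1 and atx1/2 replicate 2. Its length was 1737 and 1674 bp for Col-0, 1604 and 1658 bp for jmj28-2, and 1560 and 1575 bp for atx1/2. All mutant libraries were shorter than both Col-0 libraries, and those of atx1/2 were the shortest. Its log2 change was -0.11 ± 0.028 (SE, 95% interval -0.18 to -0.032) in atx1/2 and -0.06 ± 0.028 (-0.13 to 0.019) in jmj28-2. Neither passed the adjusted threshold (limma adjusted p = 0.412 and 0.716), although the unadjusted p in atx1/2 was 0.0170.

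Over the gene body alone JMJ29 had 1325 bp of peak in both Col-0 libraries, 1206 and 1227 bp for jmj28-2, and 1180 and 1171 bp for atx1/2. In that window the atx1/2 peak was called shorter, with a log2 change of -0.15 ± 0.0093 (SE, limma adjusted p = 0.0168). Of 17971 genes tested over the gene body, 0.79% were called shorter in atx1/2, 0.863% in jmj28-2 and 0.412% between the mutants. For JMJ29 in jmj28-2 the value was -0.11 ± 0.0093 and missed the threshold (limma adjusted p = 0.0522). The inner edge lay at 23038463 in both Col-0 lists, which gives this gene a small spread. Its mean shift was -108.5 bp in jmj28-2 and -149.5 bp in atx1/2, both towards the gene end. Of all genes, 23.6% had this edge nearer the end in both jmj28-2 libraries and 22.3% in both atx1/2 libraries. A shift at least as large in either direction was found in 14.6% of genes in jmj28-2 and 9.1% in atx1/2. The call in atx1/2 was lost when either Col-0 library or either atx1/2 library was left out, with limma adjusted p between 0.114 and 0.122. Its scores were low, at the 29.6 and 10.3 percentile in Col-0, 12.9 and 14.6 for jmj28-2, and 12.8 and 17.1 for atx1/2. The score of 93.8 in Col-0 replicate 2 fell below 100, so at a score minimum of 100 the gene had a peak in a single Col-0 library.

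**Figure D2:**
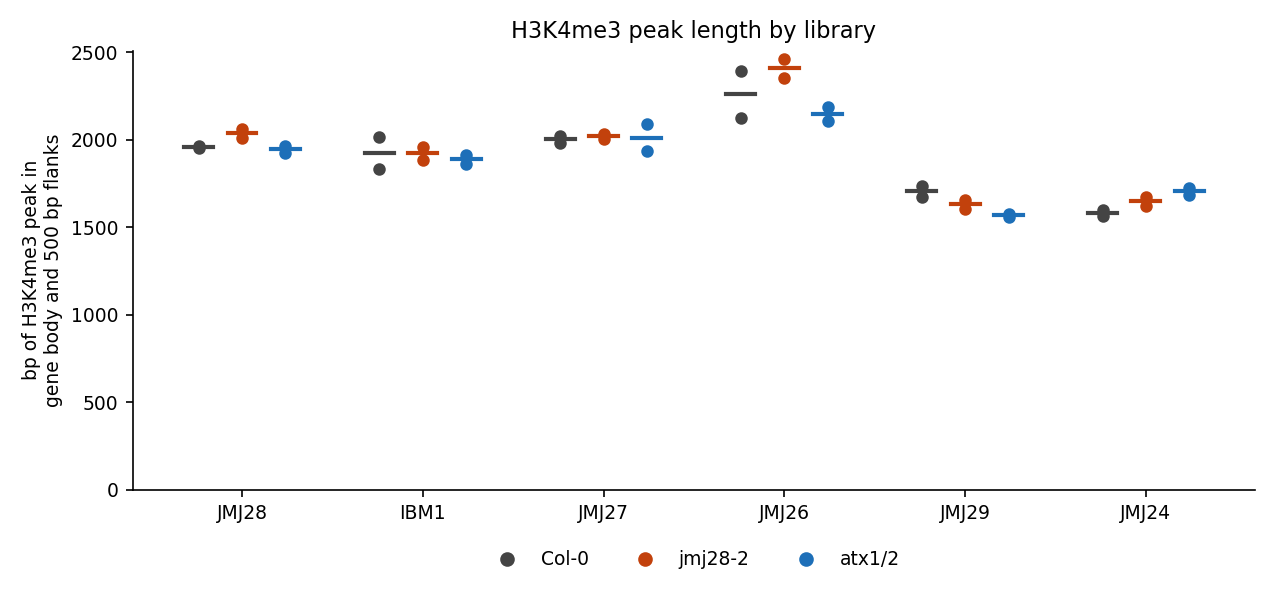
Length of H3K4me3 peak in bp within the gene body and 500 bp flanks, with 1 point per library and a line at the mean of the 2 libraries of a genotype. Means for Col-0 and atx1/2 were 1580 and 1707 bp at JMJ24 and 1706 and 1568 bp at JMJ29, and neither difference passed the test over this window.

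Across the group no gene was called longer or shorter in jmj28-2 or atx1/2, or between the mutants, when limma was fitted to all 19396 genes with a peak in at least 2 libraries (adjusted p threshold of 0.05). Of all genes tested, 1.24% were called in jmj28-2 (0.345% longer and 0.897% shorter), 1.6% in atx1/2 (0.779% longer and 0.825% shorter) and 1.28% between the mutants (0.897% longer and 0.387% shorter in atx1/2). At an unadjusted limma p of 0.05, 0 of the 6 genes passed in jmj28-2, 2 in atx1/2 (JMJ24 and JMJ29) and 0 between the mutants, against 8.06%, 8.68% and 7.1% of all genes. Over the gene and flanks the adjusted p of the 6 genes was 0.686 or more in jmj28-2, 0.412 or more in atx1/2 and 0.704 or more between the mutants.

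Libraries of jmj28-2 and Col-0 did not overlap for 3 of the 6 genes, with JMJ28 and JMJ24 longer and JMJ29 shorter in jmj28-2. Such separation was common, at 10.1% of all genes tested for longer and 26.0% for shorter peaks. In atx1/2 JMJ24 was longer and JMJ29 shorter without overlap, beside 13.7% and 23.1% of all genes. Between the mutants JMJ24 was longer in atx1/2 and JMJ28, JMJ26 and JMJ29 were shorter without overlap, beside 20.7% and 14.9% of all genes. The median log2 change of the 6 genes was 0.03 in jmj28-2 and -0.02 in atx1/2, where the median of all genes tested was -0.02 and -0.0091.

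**Figure D3:**
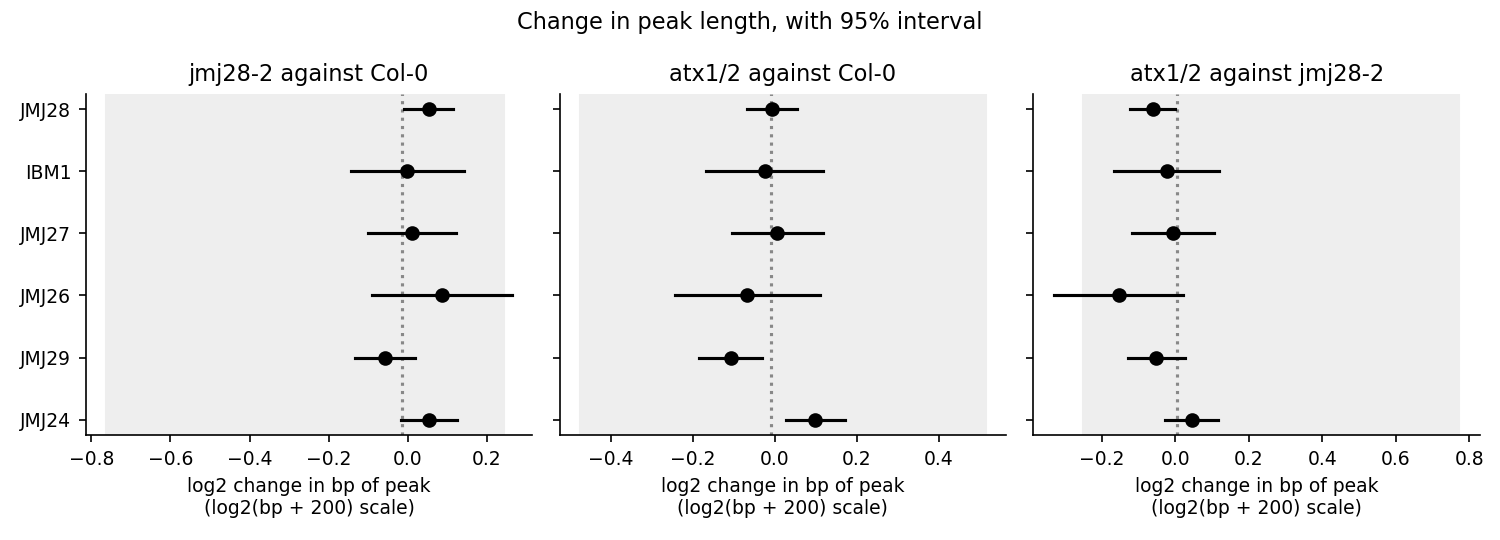
Log2 change in bp of peak for each gene (point) with its 95% interval (line) in the 3 comparisons. The grey band holds the central 95% of all 19396 genes tested and the dotted line is their median. Every point lies inside the band, and in the comparisons with Col-0 the interval of JMJ24 and JMJ29 in atx1/2 leaves out 0.

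Rank within the library differed among the 6 genes, and the mean rank of some also differed between genotypes. At JMJ24 the mean score percentile was 22.4 for Col-0, 32.2 for jmj28-2 and 26.1 for atx1/2. The libraries stood at 25.4 and 19.4 for Col-0, 34.6 and 29.7 for jmj28-2, and 25.2 and 27.0 for atx1/2. Those of atx1/2 thus overlapped Col-0. At IBM1 the mean was 73.1 for Col-0, 69.6 for jmj28-2 and 60.8 for atx1/2. The libraries stood at 69.7 and 76.4 for Col-0, 72.2 and 66.9 for jmj28-2, and 69.6 and 51.9 for atx1/2. The low atx1/2 mean came mostly from replicate 2. These differences in rank between genotypes were not tested, and their share over all genes was not computed. JMJ28 and IBM1 held the strongest peaks, with median score percentiles over the 6 libraries of 73.8 and 69.7, and their ranges overlapped (71.5 to 80.0 and 51.9 to 76.4). JMJ27 followed at 47.2 (43.9 to 56.3). JMJ24 had a median of 26.2 (19.4 to 34.6), and this step was the only one in the order of medians at which neighbouring ranges did not overlap. JMJ26 at 17.2 (13.6 to 21.2) and JMJ29 at 13.8 (10.3 to 29.6) came last, with ranges that overlapped each other and that of JMJ24. The 3 genes at the top were also the 3 with the widest peaks, with median widths of 2189.5 bp for JMJ27, 1964.5 bp for JMJ28 and 1900.5 bp for IBM1. Median widths of JMJ26, JMJ24 and JMJ29 were 1683, 1648.5 and 1631 bp.

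**Figure D4:**
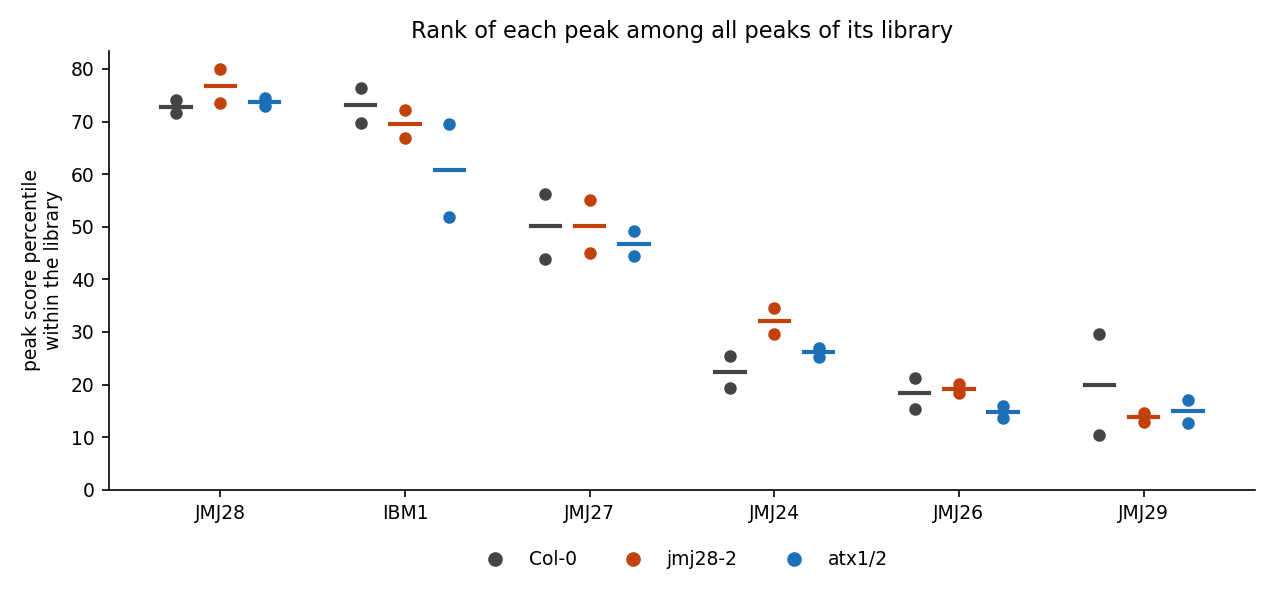
Score percentile of the peak of each gene among all peaks of the same library, with 1 point per library and a line at the mean of the 2 libraries of a genotype. JMJ28, IBM1 and JMJ27 lie at 43.9 or above in every library and JMJ24, JMJ26 and JMJ29 at 34.6 or below.

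All 6 genes were long, and the peak took up a small share of each. Gene lengths ran from 4476 bp for JMJ28 to 7230 bp for IBM1, against a median of 2435 bp among 16877 genes with a peak on the body in every library. Coverage of the gene body averaged 34.1% for JMJ26, 33.4% for JMJ28, 27.0% for JMJ24, 26.2% for JMJ27, 21.9% for IBM1 and 19.4% for JMJ29. The value for JMJ26 includes the end of the AT1G11940 peak. The median over those 16877 genes was 60.2%. Neighbours in this order whose libraries did not overlap were JMJ28 and JMJ24, and JMJ27 and IBM1. Of each peak, 56.3% to 88.9% lay inside the gene body. JMJ28, JMJ24, JMJ26 and JMJ29 had it at the end with higher coordinates and IBM1 and JMJ27 at the other. The gene table used gives no strand or exons, so start sites, exons and UTRs could not be placed. Within the gene bodies and 500 bp flanks, no other protein-coding gene lay under any of the 6 peaks. The JMJ27 peak in every library, and the JMJ28 peak in atx1/2 replicate 2, ran past the flank. Those outer parts were not searched for genes.

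The other 15 JmjC genes include demethylases of H3K4 and H3K27. Of these 14 had a peak in all 6 libraries, and JMJ15 had none in any. None of the 14 passed the test in either mutant (limma adjusted p of 0.692 or more in jmj28-2 and 0.661 or more in atx1/2), and at an unadjusted p of 0.05 the count was also 0 in both. The median of their log2 changes was -0.05 for jmj28-2 and -0.03 for atx1/2, with 12 of 14 values negative in each mutant. Of the 14 genes, 7 were shorter and 0 longer without overlap in jmj28-2, where 26.0% of all genes tested were shorter in this way and 10.1% longer. In atx1/2 these counts were 2 and 1, beside 23.1% and 13.7% of all genes. The median of all genes tested was -0.02 in jmj28-2 and -0.0091 in atx1/2. Of the 6 KDM3-type genes, 4 had positive values in jmj28-2, among them JMJ27 at 0.011 ± 0.040 (SE). In atx1/2, 2 of the 6 were positive and 4 negative. The difference in direction in jmj28-2 was not tested. ELF6, which removes methylation from H3K27 and delays flowering in long days, had 2021 and 1946 bp for Col-0 and 1735 and 1909 bp for jmj28-2 (log2 change -0.11 ± 0.051, SE, limma adjusted p = 0.704). JMJ18, a H3K4 demethylase, had 3285 and 3534 bp for Col-0 and 3112 and 3204 bp for jmj28-2 (-0.10 ± 0.045, limma adjusted p = 0.692). Of the JMJ18 values, 1585 to 1717 bp per library came from a separate second peak in the window. The ELF6 peak also lay over AT5G04238. In median score percentile the 14 genes ran from 7.61 to 97.8, so the 6 KDM3-type genes, at 13.8 to 73.8, fell within their range.

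**Figure D5:**
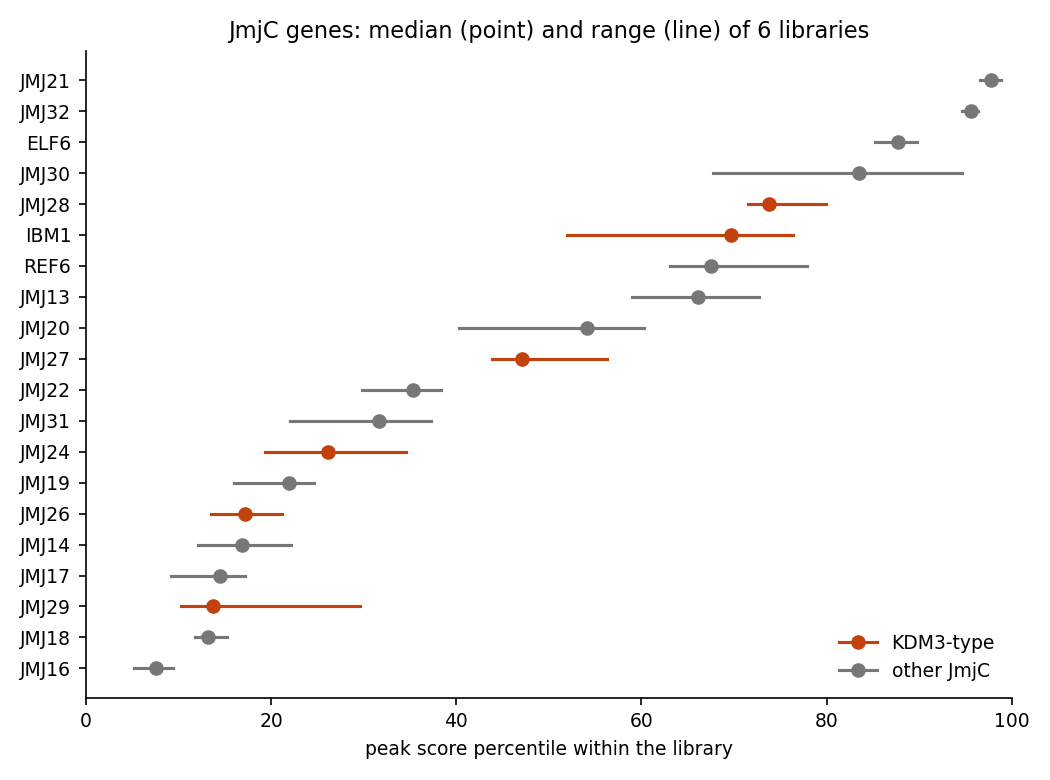
Score percentile within the library for the 20 JmjC genes with a peak in all 6 libraries, as the median (point) and range (line) of the libraries. The 6 KDM3-type genes have medians from 13.8 to 73.8 and lie among the other 14 genes, which run from 7.61 to 97.8.

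A chosen list of 13 genes around H3K9 and DNA methylation held KYP, SUVH1, SUVH2, SUVH3, SUVH5, SUVH6, SUVH9, SUVR4, SUVR5, CMT2, CMT3 and the genes IBM2 and EDM2, which are needed for full-length IBM1 transcripts. Of these, 13 of 13 had a peak in all 6 libraries. None passed the test in either mutant (limma adjusted p of 0.279 or more in jmj28-2 and 0.168 or more in atx1/2), and 1 gene, SUVR4, had an unadjusted p under 0.05 in each, beside 8.06% and 8.68% of all genes. SUVR4, a histone methyltransferase gene, had 1937 and 1826 bp for Col-0, 1530 and 1587 bp for jmj28-2 and 1569 and 1477 bp for atx1/2. Both mutants lay below Col-0, as did 26.0% and 23.1% of all genes without overlap, with log2 changes of -0.24 ± 0.044 and -0.27 ± 0.044 (SE). Its peak also covered part of the neighbouring gene PDLP4. SUVH5, a H3K9 methyltransferase gene, had 1463 and 1575 bp for Col-0, 1665 and 1654 bp for jmj28-2 and 1489 and 1323 bp for atx1/2 (log2 changes 0.11 and -0.10, limma adjusted p = 0.757 and 0.773). A separate peak gave 92 to 160 bp of this length per library. The median log2 change of the 13 genes was 0.03 in jmj28-2 and -0.02 in atx1/2.

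Of 8 genes around JMJ28 in the flowering pathway (the 4 FBH genes, ATX1, ATX2, CO and FT), 7 had a peak in all 6 libraries and FT, the florigen gene, had none. None of the 7 passed the test (limma adjusted p of 0.534 or more in jmj28-2 and 0.395 or more in atx1/2). Without overlap, 3 of the 7 were shorter and 0 longer in jmj28-2, beside 26.0% and 10.1% of all genes tested. In atx1/2, 4 were shorter and 1 longer, beside 23.1% and 13.7%. At an unadjusted p of 0.05 the counts were 2 in jmj28-2, ATX2 and CO, and 1 in atx1/2, CO, where 8.06% and 8.68% of all genes passed. Over CO, the activator of FT in long days, 1355 and 1344 bp were covered in Col-0, 1268 and 1255 bp for jmj28-2 and 1208 and 1268 bp for atx1/2. Both mutants lay below Col-0, as did 26.0% and 23.1% of all genes without overlap, with log2 changes of -0.08 and -0.11 (limma adjusted p = 0.583 and 0.395). This peak also spanned bZIP3 and AT5G15843 and is not that of CO alone. FBH3, a bHLH activator of CO, had 1991 and 1959 bp for Col-0, 1985 and 1864 bp for jmj28-2 and 1733 and 1877 bp for atx1/2 (log2 change in atx1/2 -0.12 ± 0.050, SE, limma adjusted p = 0.642). The median log2 change of the 7 genes was -0.03 in jmj28-2 and -0.04 in atx1/2.

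The genes nearest to JMJ28 in peak length relative to Col-0 were ATJ1, GTA2 and RFC3. Nearness was the Euclidean distance over the 6 libraries of log2(bp + 200) from the Col-0 mean, among 7716 genes with a symbol. JMJ28 itself changed little, so a small distance does not show that these genes vary together. Distances were 0.0195, 0.0253 and 0.0301. ATJ1 had 1232 and 1214 bp for Col-0, 1248 and 1285 bp for jmj28-2 and 1233 and 1190 bp for atx1/2.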

How the data were processed

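H3K4me3 ChIP-seq peak lists of 6 libraries were used, and the data of the 3 H3 samples were not analysed here. The authors deposited 1 list per library with peak positions and a score per peak. Per the submitters' processing notes, which give no roles, the build was TAIR10 and the tools were deepTools 2.4.1, ChIPseeker, MACS 1.4 and Bowtie2 2.2.8. Scores served only to rank or filter peaks within a list. Positions are counted from 1. Genes came from a RefSeq table of TAIR10.1, matched by locus for all 42 genes named in lists. Its coordinates are not printed; in 117 of 118 windows of 1000 kb the gene bodies fitted the peaks best at a shift of at most 400 bp. The bp of peak over each gene body and 500 bp flanks were tested with limma 3.58.1 (R 4.3.3) on log2(bp + 200), in a single fit of the 6 libraries that left 3 residual degrees of freedom, for genes with a peak in at least 2 libraries. The Benjamini-Hochberg threshold was 0.05. The procedure was tested on simulated data with set changes larger than those of the 6 genes over gene and flanks. That test therefore does not show whether changes as small as theirs could be detected. Intervals are not adjusted for multiple tests. Python 3.11.15, pandas 2.3.3, numpy 2.4.6 and matplotlib 3.10.9 handled tables and plots. The genes and lists were chosen with earlier results of these data known. In each list the 2 genes with the largest change against Col-0 are named; ATX2 was named after its values were seen. Planned promoter motifs were not analysed here. The alternatives tried varied the window, pseudocount, filter, score minimum, number of peaks per list, centring, variance model, libraries fitted, replicate block and each library left out.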

Additional observations from a re-analysis of the deposited data

How the results depend on the processing

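No gene of the group was called under any other setting over the gene and flanks, and over the gene body alone the exception was JMJ29 in atx1/2, which raised the count for atx1/2 from 0 to 1. Trend and robust variances over the gene body, chosen after seeing the data, also gave 1. Leaving out libraries in that window gave 0 to 1. At a score of 100 or more JMJ29 turned to log2 changes of 1.56 in jmj28-2 and 1.51 in atx1/2, not called, because 1 Col-0 peak fell under that score. Many settings alter the filter or the error and cannot move a gene's own estimate. Over all settings the log2 change of JMJ28 in jmj28-2 ran from 0.04 to 0.09, that of JMJ24 from 0.011 to 0.14 in jmj28-2 and from 0.07 to 0.16 in atx1/2. Requiring a peak in all 6 libraries tested fewer genes and called 65 in jmj28-2, 97 in atx1/2 and 76 between the mutants, against 241, 311 and 249. Leaving out single libraries gave 260 to 363 genes in jmj28-2, 344 to 427 in atx1/2 and 291 to 354 between the mutants. The replicate block called 211, 275 and 213 genes and none of the 6. The labels do not say whether replicate numbers mark pairs. Differences in peak length between replicates correlated between genotypes at -0.018 to 0.064, which cannot exclude a pairing with little effect on peak length. Depth is unknown, so weak peaks such as that of JMJ29 cannot be given a counting error.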
